A study of Mus musculus with 14 samples.

Results

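Sir2KD2 is a stable line of MIN6, an insulin-secreting mouse pancreatic beta-cell line, that carries small interfering RNA vectors against Sirt1. It was hybridised on 4 of the series' 14 two-colour arrays, each against RNA of MIN6-mU6pro, the line with the empty vector. The 4 arrays were taken by their titles, and all probes were kept, of which 23230 of 23232 had enough values to be tested. The companion knockdown line Sir2KD1 was measured on 3 arrays against the same mU6pro RNA. The remaining arrays set the Sirt1-overexpressing lines Sir2OE1 (3 arrays) and Sir2OE2 (4 arrays) against pooled RNA of the lines Neo1 and Neo2.

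Per the labels, Sir2KD2, Sir2KD1 and mU6pro came from MIN6 cells at passage 24. The knockdown lines received mU6pro vectors expressing a pair of different small interfering RNAs together with a neomycin resistance plasmid, and were selected in 400 µg/ml G418. The overexpressing lines carried Sirt1 in a pBabe retrovirus and were selected in 280 µg/ml G418. RNA was taken after 4 days of culture at 5 mM glucose. Each line is a single selected line, so a difference between Sir2KD2 and mU6pro is a difference between those lines, whether it comes from the knockdown or from the choice of cells; these cannot be told apart here. Nothing in the labels says that the slides of Sir2KD2 came from separate cultures, so the p-values refer to spread among slides, and that spread may be technical.

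Sirt1 is an NAD-dependent deacetylase that acts on histones and on regulators such as p53, FoxO factors and PGC-1alpha. In beta cells it is known for its part in glucose-stimulated insulin secretion, where it represses the uncoupling protein Ucp2. Sir2KD1, made in the same way, shows which of the Sir2KD2 ratios were also measured in an independent line.

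The deposited values are log2 channel ratios from which a mean per probe had been removed, and the sources used here do not say which channel is on top. Slides 1 and 2 of Sir2KD2 held the line in channel 2, and slides 3 and 4 held it in channel 1. The sign was turned on arrays with the line in channel 1. A ratio above 0 after this turn is called plus and one below 0 minus. It is not known which of them stands for more RNA in Sir2KD2: reading the ratio the other way exchanges every plus and minus below. As deposited, the arrays of opposite channel correlated at -0.316 to -0.217 over all probes, so after the turn they correlated at 0.217 to 0.316. The arrays of the same channel correlated at -0.0462 and 0.0616. With the centring undone the order was the other one: turned arrays of opposite channel correlated at -0.322 to -0.188, and arrays of the same channel at 0.353 and 0.484. Centring by itself pushes correlations between arrays below 0, so these correlations do not settle the turn, which is an assumption. With the centring undone and no sign turned, 1403 probes passed the test in Sir2KD2, of which 5 were among the 312 described below. For Sir2KD2 minus Sir2KD1, 89 probes passed with no sign turned. Of these, 0 were among the 160 called after the turn and 0 among the 28 not seen in Sir2KD1. A ratio that changes sides with the channel averages toward 0 in Sir2KD2 when not turned, so a small overlap is built in. These overlaps therefore do not test the class, the whole of which rests on the turn.

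The centring could be undone to whole-number percents, which show the array values behind the turn. For Cd81, a tetraspanin of the cell surface, the channel ratio on Sir2KD2 slides 1 to 4 was 14%, 14%, 547% and 710%, and on Sir2KD1 slides 1 to 3 it was 58%, 156% and 153%. The ratio thus changed sides with the channel that held the line. For Cldn7, a claudin of tight junctions, it was 391%, 977%, 9% and 13% in Sir2KD2, and 34%, 88% and 144% in Sir2KD1. Rgs3, a regulator of G-protein signalling, had 23%, 24%, 465% and 459% in Sir2KD2, and 25%, 467% and 451% in Sir2KD1, where the order of the channels was 2, 1 and 1. Rgs3 thus changed sides with the channel in both lines. It was chosen for this after its values were seen, and its other probe stood at 0.07 in Sir2KD2. The genes were picked from probes called after the turn, which selects ratios that change sides with the channel.

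**Figure D1:**
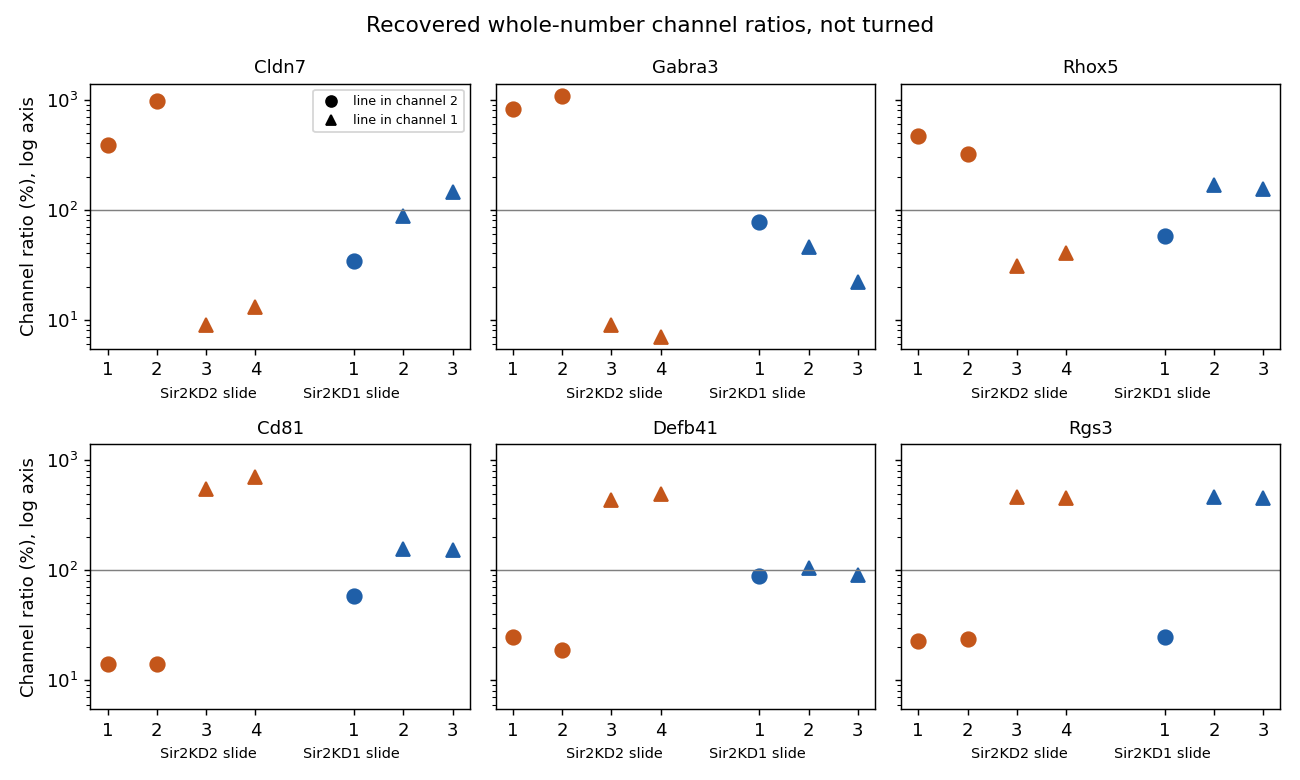
Channel ratio in percent, on a log axis and with no sign turned, for 6 genes on the 4 Sir2KD2 arrays (orange, left) and the 3 Sir2KD1 arrays (blue, right); circles hold the line in channel 2 and triangles in channel 1, and the grey line marks 100%. In Sir2KD2 circles and triangles lie on opposite sides of 100% for every gene shown, while Defb41 stays near 100% in Sir2KD1 (88%, 105% and 90%) and Rgs3 does not (25%, 467% and 451%).

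Sirt1 itself, read by 1 probe, was not called. Its turned log2 ratio was 0.22, 0.10, 0.10 and 0.07 on Sir2KD2 slides 1 to 4, and -0.12, -0.21 and 0.03 on Sir2KD1 slides 1 to 3. The fitted value was 0.13 ± 0.10 in Sir2KD2 (SE, n = 4 arrays; limma adjusted p = 0.651) and -0.10 ± 0.12 in Sir2KD1 (n = 3; adjusted p = 0.772). The probe therefore neither checks the labels nor settles which side is up. The place of the probe on the transcript was not analysed here.

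In Sir2KD2, 312 of 23230 probes (1.34%) passed limma's test against 0 at a Benjamini-Hochberg adjusted p of 0.05, of which 140 were plus (0.603%) and 172 minus (0.74%). All 312 had 4 of 4 arrays on that side, which the test against 0 on these same arrays favours by itself. Of the 312, 256 had 1 gene symbol, and 151 had an absolute log2 ratio of at least 1. Sir2KD1 gave 833 calls (3.59%) with 1 array fewer. The calls rest on a spread pooled over all 14 arrays: with the 7 knockdown arrays alone 65 probes passed, and with the 4 Sir2KD2 arrays alone 0 passed, although 2614 had an unadjusted p under 0.05. Every SE in the text and figures comes from this pooled fit and is not the SE of the line's own slides. The n beside an SE counts only the arrays of the line. Leaving out Sir2KD2 slide 1, 2, 3 or 4 left 150, 179, 170 or 149 calls, and leaving out Sir2OE2 slide 1 left 206. Just inside the threshold, the smallest absolute log2 ratio called was 0.45, against a standard deviation of 0.347 over all probes.

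Gabra3 had the highest plus-side ratio of the probes tested in Sir2KD2. This subunit, alpha-3, of the GABA-A receptor had 3.62, 4.00, 2.91 and 3.27 on Sir2KD2 slides 1 to 4, a mean of 3.45 ± 0.31 (SE, n = 4; adjusted p = 0.000313), or 10.9-fold. Fnbp1l, an F-BAR protein that links Cdc42 to actin assembly, had 3.99, 2.25, 3.16 and 3.82, a mean of 3.31 ± 0.26 (adjusted p = 0.000115), with 3.62 in Sir2KD1. Both genes stood above 2 on every Sir2KD2 array. Cldn7 had 2.33, 3.65, 3.11 and 2.58, a mean of 2.92 ± 0.22 (adjusted p = 8.52e-05). Zcchc12, a zinc-finger coactivator of BMP signalling expressed in brain, had 3.14, 2.14, 3.01 and 1.62, a mean of 2.48 ± 0.24. These 4 genes had no second probe on the array.

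Sod3, the extracellular superoxide dismutase, had 2.15, 2.44, 2.23 and 2.29 in Sir2KD2, a mean of 2.28 ± 0.12 (SE, n = 4; adjusted p = 6.15e-06), and 2.78 in Sir2KD1. Sod3 also passed on the plus side in Sir2OE1 (2.44) and Sir2OE2 (4.13). Gpx2, the glutathione peroxidase of the gut epithelium, had 2.02, 3.12, 1.94 and 1.94, a mean of 2.26 ± 0.27 (adjusted p = 0.00199), with slide 2 standing apart above the others. Ucn3, urocortin 3, a peptide of mature beta cells, averaged 2.62 ± 0.14 in Sir2KD2 and 2.86 in Sir2KD1 on one probe, but its other probe stood at -0.40 in Sir2KD2 and did not pass. The Ucn3 probes disagree, so no side is given for the gene. Atp13a2, a lysosomal P-type ATPase that moves polyamines, had 1.83, 2.17, 1.96 and 1.79, a mean of 1.94 ± 0.13 (adjusted p = 3.12e-05). The other leading plus-side genes were 4930430J02Rik at 2.47, Mageb16 at 2.41, Dcaf8l at 2.05 and 3110039M20Rik at 2.00. Of these, 3110039M20Rik also passed on the plus side in Sir2OE1 (2.04) and Sir2OE2 (1.46), and Dcaf8l in Sir2OE2 (2.11).

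On the minus side the alpha-1 antitrypsin genes led. Serpina1e, 1 of 5 neighbouring genes for this inhibitor of neutrophil elastase in the mouse, had -3.82, -4.30, -3.78 and -3.65 in Sir2KD2, a mean of -3.89 ± 0.16 (SE, n = 4; adjusted p = 1.39e-06). Serpina1b, Serpina1c, Serpina1a and Serpina1d averaged -3.44, -3.37, -3.34 and -3.34. All 5 genes also passed on the minus side in Sir2KD1, between -4.97 and -2.92, and no difference between the lines passed. In Sir2OE2 all 5 passed on the plus side, between 1.82 and 2.06. The copies are near-identical in sequence, so their probes may read the same transcripts. Obox1, an oocyte homeobox gene, had -3.06, -4.20, -3.04 and -4.87, a mean of -3.79 ± 0.31 (adjusted p = 0.000139), and -2.78 in Sir2KD1.

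Cd81 had the smallest SE from the pooled fit of the leading genes on either side. The standard deviation of its own 4 slides was 0.15, against 0.12 for Sod3. Its values were -2.74, -2.74, -2.55 and -2.92 in Sir2KD2, a mean of -2.74 ± 0.11 (SE, n = 4; adjusted p = 1.39e-06). Mest, an imprinted gene expressed from the paternal copy, had -2.30, -3.01, -2.26 and -3.31, a mean of -2.72 ± 0.31 (adjusted p = 0.00154). Rbl2, the retinoblastoma-like protein p130 that holds cells out of the cycle, had -2.76, -2.67, -2.56 and -2.42, a mean of -2.60 ± 0.15 (adjusted p = 1.11e-05). Mest and Rbl2 stood at -2.85 and -2.57 in Sir2KD1. Mest also passed on the minus side in Sir2OE1 (-2.38) and Sir2OE2 (-3.33), and Rbl2 passed in neither. Ctsg, the neutrophil protease cathepsin G, averaged -2.49 ± 0.38, and Sult1d1, a sulfotransferase, averaged -2.21 ± 0.23. Cacng2, an AMPA receptor auxiliary subunit, averaged -2.42 ± 0.23 on one probe, while its other probe stood at 0.78 and did not pass.

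**Figure D2:**
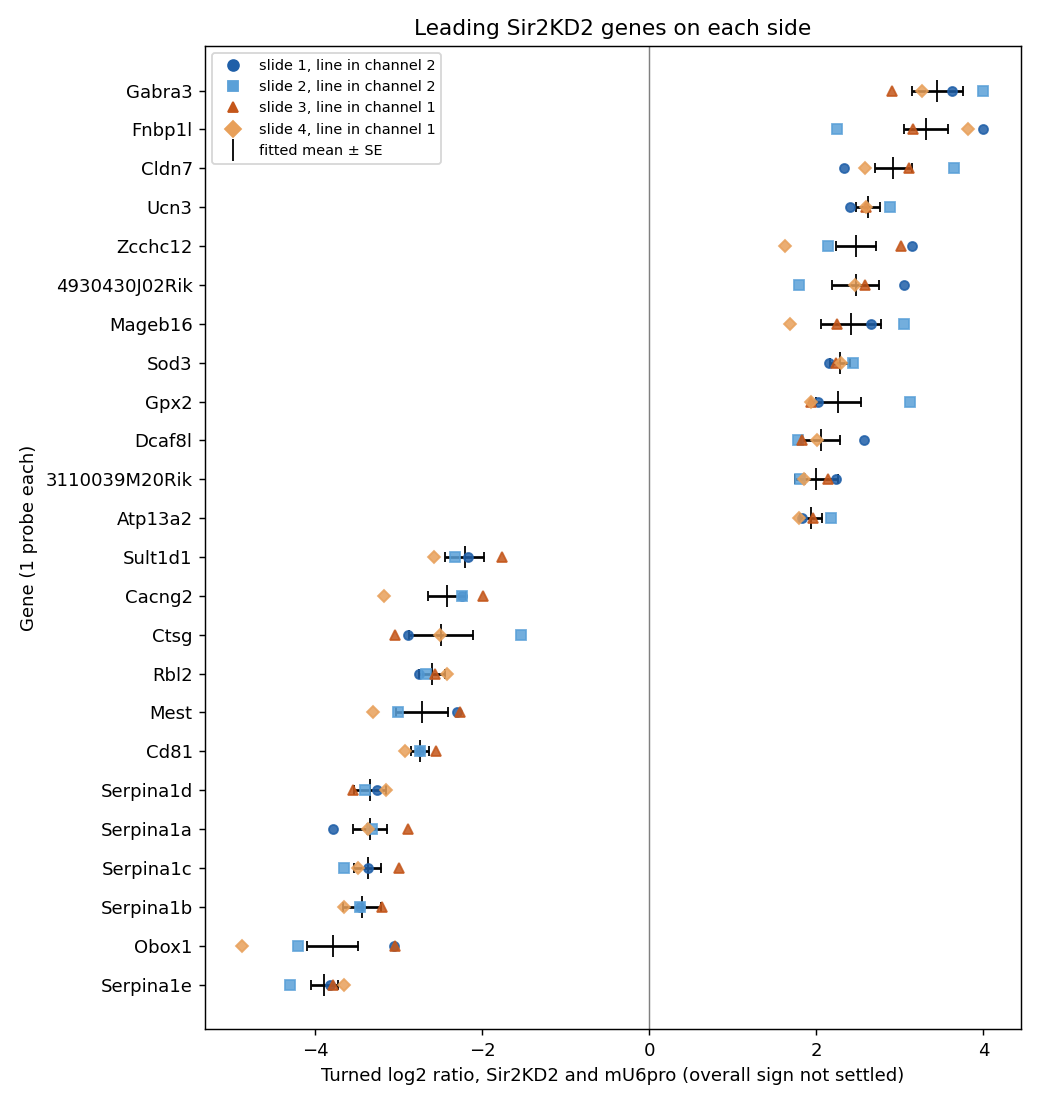
Turned log2 ratio on each of the 4 Sir2KD2 arrays (symbols) with the fitted mean ± SE (black) for the 12 genes with the largest called ratios on each side. Every array lies on the side of its mean, which the choice of genes required. Gabra3 at 3.45 and Serpina1e at -3.89 lie at the ends, and Gpx2 slide 2 at 3.12 lies apart from its other arrays.

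Sir2KD2 was then set against Sir2KD1. The lines share their mU6pro control, so a like ratio in both can come from that control as well as from the lines, and no measure of agreement is given. Of the 312 probes, 153 also passed on the same side in Sir2KD1 (57 plus, 96 minus) and 3 passed on opposite sides. The other 156 did not pass in Sir2KD1, and for 128 of these the difference between the lines did not pass either, so they are not shown to differ. For 28 probes, 19 plus and 9 minus (0.121% of probes tested), the difference passed as well, and 23 of the 28 had 1 gene symbol. The difference alone passed for 160 probes (0.689%), of which 111 had passed in Sir2KD1 and not in Sir2KD2.

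The 28 probes rest on few arrays. All 28 had 4 Sir2KD2 arrays that did not overlap the 3 Sir2KD1 arrays, as did 3433 of all probes tested. With the 7 knockdown arrays alone, none of the 28 held (0 probes in this class), and 1 difference passed among all probes, against 2201 with an unadjusted p under 0.05. Leaving out Sir2KD2 slide 3 left 13 probes in the class, and leaving out Sir2KD1 slide 2, Sir2KD1 slide 3, Sir2OE2 slide 1 or Sir2OE2 slide 2 left 18, 18, 17 or 18. The difference passed in each of the 14 fits without 1 array for 7 of the 28 probes, of which 6 had a symbol: Cldn7, Gpx2, Atp13a2, Rhox5, Odf2l and Defb41.

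Cldn7 differed most among the named plus-side genes. Its values in Sir2KD1 were -1.19, -0.18 and -0.89, and the difference, Sir2KD2 minus Sir2KD1, was 3.70 ± 0.35 (SE; limma adjusted p = 0.000896). Cldn7 also passed on the minus side in Sir2OE1 (-2.01) and Sir2OE2 (-1.71), lines in which 1.06% and 2.81% of probes passed. Gpx2 had -1.41, -0.52 and -0.16 in Sir2KD1, a difference of 2.96 ± 0.41 (adjusted p = 0.0118), and passed on the plus side in Sir2OE1 (1.92). Every Sir2KD2 array of both genes lay above every Sir2KD1 array, a separation that all 28 probes of the class had. Atp13a2 had 0.01, 0.20 and 0.26 in Sir2KD1, a difference of 1.78 ± 0.20 (adjusted p = 0.00329). Odf2l, a centrosomal protein related to outer dense fibre protein 2, had 1.36, 1.36, 1.43 and 1.23 in Sir2KD2 and -0.33, 0.12 and -0.27 in Sir2KD1, a difference of 1.52 ± 0.17 (adjusted p = 0.00284).

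Rhox5, an X-linked homeobox gene of testis and placenta, had 2.11, 1.55, 1.81 and 1.44 in Sir2KD2, a mean of 1.73 ± 0.14 (SE, n = 4; adjusted p = 0.000153). Its Sir2KD1 values were -0.93, -0.62 and -0.51, a difference of 2.42 ± 0.22 (adjusted p = 0.000896), and it stood at -0.02 and 0.04 in Sir2OE1 and Sir2OE2. Mageb16, a MAGE family gene that is mostly silent outside the germ line, had 2.65, 3.05, 2.25 and 1.69 in Sir2KD2 and -2.16, 0.38 and -0.39 in Sir2KD1, a difference of 3.19 ± 0.56 (adjusted p = 0.0349). The Mageb16 arrays of Sir2KD1 scattered on both sides of 0, its difference passed in 4 of the 14 fits without 1 array, and its call in Sir2KD2 was lost in 2 of them. Gabra3 had 0.19, 0.56 and 1.62 in Sir2KD1, and its difference of 2.65 ± 0.48 (adjusted p = 0.0412) passed in 2 of those 14 fits. Zcchc12 had -0.48, 0.52 and 0.17 in Sir2KD1, a difference of 2.43 ± 0.37 (adjusted p = 0.0161) that passed in 11 of them.

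The next plus-side genes of the class were Vps13b, a Golgi protein (1.16 in Sir2KD2, -0.10 in Sir2KD1), 1700019D03Rik (0.98 and -0.28), Cyct, the cytochrome c of testis (0.96 and -0.14), and Ly75, an endocytic receptor of dendritic and epithelial cells (0.85 and -0.47). Other probes of Vps13b and Cyct stood at 0.28 and 0.71 in Sir2KD2 and did not pass. In Sir2OE1 and Sir2OE2, Cyct passed on the minus side (-1.94 and -1.30), as did 1700019D03Rik (-0.87 and -1.40). The differences of Vps13b, 1700019D03Rik, Cyct and Ly75 passed in 3, 2, 5 and 9 of the 14 fits without 1 array. The Sir2KD2 calls of 1700019D03Rik and Ly75 held in 12 and 11 of those fits. The remaining 3 named plus-side genes of the class, added after their values were seen, were 1700086L19Rik (0.85 in Sir2KD2, -0.19 in Sir2KD1), Pax4 (0.78 and -0.40) and Msmo1, a sterol oxidase of cholesterol synthesis (0.55 and -0.50). Pax4, a paired-homeobox factor of developing beta cells, had 0.78, 0.65, 1.09 and 0.59 in Sir2KD2 and -0.27, -0.42 and -0.52 in Sir2KD1, a difference of 1.18 ± 0.18 (SE; limma adjusted p = 0.016) that passed in 12 of those fits. Every Sir2KD2 array of Pax4 was above 0 and every Sir2KD1 array below it. Arrays of the lines did not overlap for any of the 28 probes of the class, so this separation is no further support. The differences of 1700086L19Rik and Msmo1 passed in 10 and 9 of the fits, and the Sir2KD2 call of Msmo1 held in 7.

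On the minus side of the class, Defb41, a beta-defensin of the epididymis, had -1.95, -2.34, -2.17 and -2.35 in Sir2KD2 and -0.13, -0.12 and 0.10 in Sir2KD1. The difference was -2.15 ± 0.19 (SE; limma adjusted p = 0.000606). Defb41 passed on opposite sides in the overexpressing lines, at 1.26 in Sir2OE1 and -1.35 in Sir2OE2. Ctsg had -2.89, -1.53, -3.04 and -2.51 in Sir2KD2 and 0.77, 0.10 and 1.89 in Sir2KD1, a difference of -3.46 ± 0.58 (adjusted p = 0.0296) that passed in 7 of the 14 fits without 1 array. The Sir2KD2 call of Ctsg held in 11 of those fits. Speer8-ps1, listed as a pseudogene, averaged -2.02 in Sir2KD2 and -0.50 in Sir2KD1. Serpinb1a, an inhibitor of neutrophil serine proteases, averaged -1.78 and -0.02, and Cbln1, a secreted synapse organiser, averaged -1.11 and 0.03. Phlda3, an Akt repressor induced by p53, averaged -1.01 and 0.67, but its call was lost whichever Sir2KD2 array was left out, and its difference passed in 2 of the 14 fits. Agrn, the matrix proteoglycan agrin, averaged -0.93 and 0.28, and Chn1, a Rac GTPase-activating protein, averaged -0.81 and 0.07. The differences of Speer8-ps1, Serpinb1a, Cbln1, Agrn and Chn1 passed in 12, 10, 9, 13 and 4 of those fits. Other probes of Agrn (-0.19 and 0.29) and Chn1 (-0.15) did not pass in Sir2KD2. Cbln1 passed on the plus side in Sir2OE1 (0.93) and Sir2OE2 (1.54), and Speer8-ps1 on the minus side in Sir2OE2 (-1.54).

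**Figure D3:**
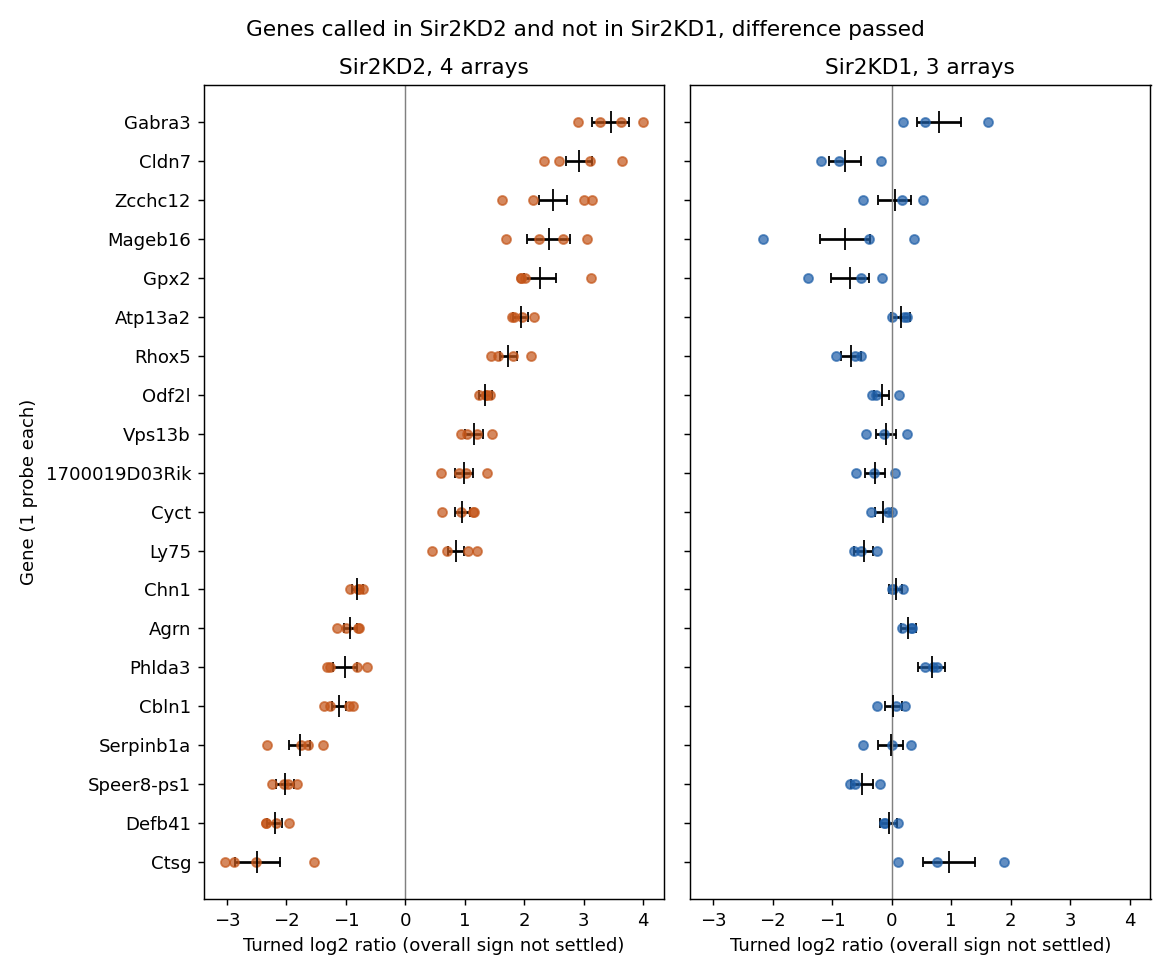
Turned log2 ratio on each array (points) with the fitted mean ± SE (black bars) for genes that passed in Sir2KD2 and not in Sir2KD1 and whose difference passed, the 12 largest on the plus side and all 8 named on the minus side; Sir2KD2 is on the left and Sir2KD1 on the right. Sir2KD2 means run from -2.49 (Ctsg) to 3.45 (Gabra3), and Sir2KD1 means lie between -0.78 and 0.96.

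Other probes differed between the lines outside this class. Napsa, the aspartic protease napsin A, had -1.39, -1.14, -0.65 and -0.68 in Sir2KD2 and 3.23, 3.08 and 2.03 in Sir2KD1. Its difference was -3.73 ± 0.31 (SE; limma adjusted p = 0.000606), but its own call in Sir2KD2 (adjusted p = 0.047) was lost in each fit without 1 Sir2KD2 array. 4933429K18Rik stood at 0.97 in Sir2KD2 and -0.91 in Sir2KD1, and its Sir2KD2 call was likewise lost in each fit without 1 Sir2KD2 array. For 14 probes the ratio lay on the same side in both lines but differed in size, and 12 of these were on the minus side. Cd81 had -0.69, -0.74 and -0.71 in Sir2KD1, so its Sir2KD2 ratio was further from 0 by -2.03 ± 0.17 (adjusted p = 0.000606). Dlk1, an imprinted Notch-related membrane protein, went the other way in size, with -0.92, -1.06, -0.95 and -0.59 in Sir2KD2 and -3.73, -4.34 and -4.17 in Sir2KD1 (difference 3.19 ± 0.19; adjusted p = 0.000176). Slc2a2, the glucose transporter GLUT2 of beta cells, had -1.21, -0.74, -1.14 and -0.48 in Sir2KD2 and -1.97, -1.95 and -2.29 in Sir2KD1 (difference 1.18 ± 0.21; adjusted p = 0.0373). That difference passed in 2 of the 14 fits without 1 array, and the Sir2KD2 call of Slc2a2 was lost in 2. Csn3, kappa casein, averaged 1.82 in Sir2KD2 and 2.77 in Sir2KD1 (difference -0.95; limma adjusted p = 0.044), and this difference passed in 0 of the 14 fits without 1 array.

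**Figure D4:**
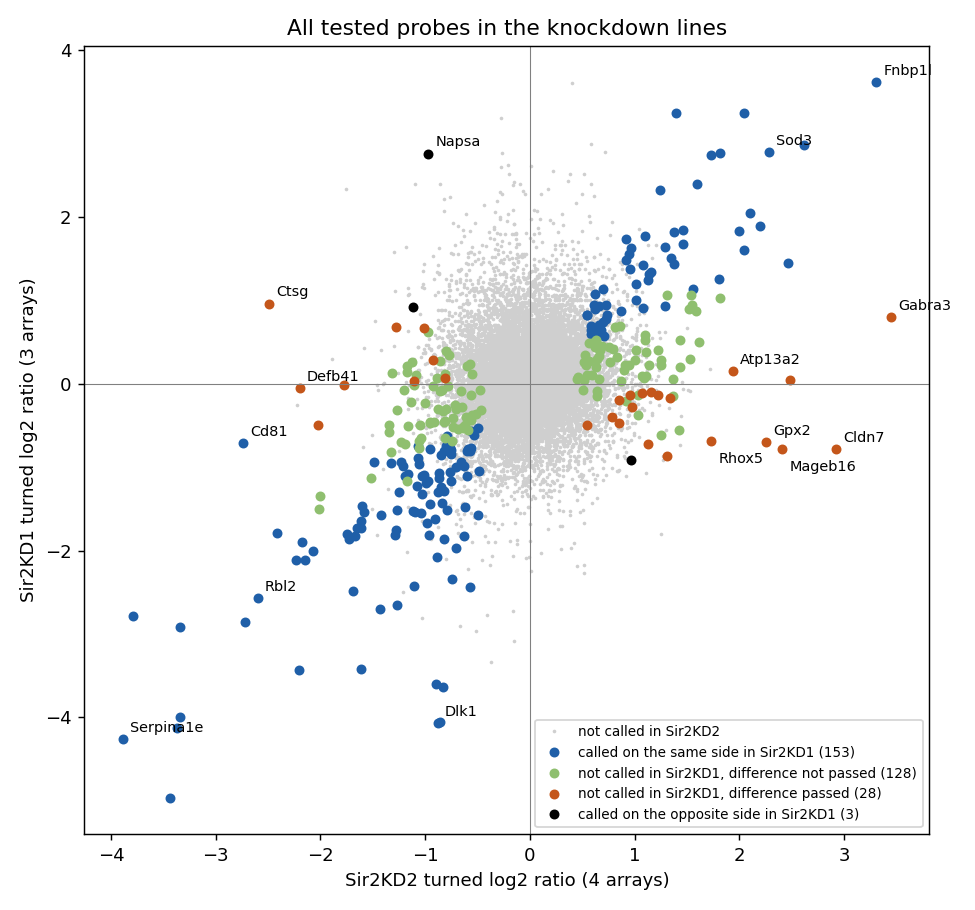
Turned log2 ratio of all 23230 tested probes in Sir2KD2 (horizontal, 4 arrays) and Sir2KD1 (vertical, 3 arrays), coloured by class, with the number of probes in each class in the key; the shared mU6pro control links the axes. The 28 orange probes lie between -0.87 and 0.96 in Sir2KD1, and Cd81 and Dlk1 lie on the minus side in both lines at different distances from 0.

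Of 13 measured beta-cell identity genes, read by the first probe of each, 3 passed on the minus side and 0 on the plus side. Over all probes 0.74% and 0.603% did, and the list median was -0.24 against -0.00273 over all probes. Slc2a2 (above), Hnf4a and Isl1 were the 3. Read by the last probe of each gene, 2 passed as minus and 1 as plus, with a list median of -0.14. That plus call was Ucn3, whose probes disagree. Isl1, a homeobox factor of islet cells, had -0.63, -0.54, -0.60 and -0.58 in Sir2KD2 (mean -0.59 ± 0.11, SE; adjusted p = 0.0315) and -0.78 in Sir2KD1. Hnf4a, a nuclear receptor, averaged -0.97 (adjusted p = 0.0246), with another probe at 0.08. The calls of Isl1 and Hnf4a were lost whichever of the 4 Sir2KD2 arrays was left out. Pdx1, the central beta-cell transcription factor, stood at -0.50 (adjusted p = 0.0534), and Ins2, an insulin gene, at -0.07 (adjusted p = 0.908). Pcsk1, a prohormone convertase, was the 1 gene of 13 in the granule list to pass, at 0.76 in Sir2KD2 and 0.44 in Sir2KD1, where it did not pass. Across the knockdown arrays, 173 probes carried nearly the same set of channel ratios. Among them were 4 of the 13 granule probes and 1 of the 13 beta-cell identity probes. Whether those probes read their own genes is unknown, so their lack of a call is not evidence of no change.

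Among 18 measured serpins, 6 passed on the minus side, Serpina1a to Serpina1e and Serpinb1a, where 0.74% of all probes did, and the list median was -0.11. The 5 Serpina1 probes may read the same transcripts. Serpinb8, outside the list and noted after its value was seen, passed as plus (0.81). For the lists that follow, the shares over all probes were 0.603% plus and 0.74% minus. Of 21 imprinted genes, Mest and Dlk1 passed, both minus. Of 30 cyclins and cell cycle inhibitors, Rbl2 and Ccnd2, cyclin D2, passed as minus, and both Ccnd2 probes passed (-0.79 and -0.99). Of 28 transporters and carbonic anhydrases, 3 were plus and 1, Slc2a2, was minus. The plus calls were Car15, a membrane-anchored carbonic anhydrase (1.16, and 1.34 in Sir2KD1), Abcc3, an organic anion exporter (1.13, and 1.24), and Slc38a2, an amino acid transporter (0.66, and 0.06, not passed). Of 13 small GTPase genes, Fnbp1l was plus and Gem, an RGK protein that inhibits calcium channels, was minus (-0.87, and -1.13 in Sir2KD1). Of 25 genes in the insulin and IGF list, Igfbp7, an IGF-binding protein, was minus (-1.03, and -1.32 in Sir2KD1). The 1 plus call of that list was Csn3, kappa casein, which is not itself an insulin or IGF gene. Csn3 was listed with earlier results of these data known, so its call is no result about the list. Syt5, a synaptotagmin of secretory vesicles, was the 1 call among 17 exocytosis genes (-0.49, and -1.04 in Sir2KD1), and Slc2a2 the 1 call among 23 glycolysis genes.

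In the antioxidant list, Sod3 and Gpx2 passed as plus of 21 measured, against 0.603% of all probes, and the median was 0.04. In the stress response list, 2 of 30 passed on the plus side: Asns, asparagine synthetase (0.67, and 0.61 in Sir2KD1), and Psat1, of serine synthesis (0.59, and 0.10 in Sir2KD1, not passed). Ucp1, an uncoupling protein, passed at 0.62 among 20 measured mitochondrial regulators. Of 28 epithelial genes, Cldn7 and Krt7, a simple-epithelium keratin (1.29), passed as plus, and Ocln, occludin (-1.27), passed as minus. The neuronal list of 24 had 2 plus calls, Uchl1, a neuronal deubiquitinase (1.81), and Stmn2, a microtubule regulator (1.10). Uchl1 also passed on the plus side in Sir2OE1 (2.45) and Sir2OE2 (3.18), and Stmn2 in Sir2OE2 (2.32). The calls of Asns, Psat1, Ucp1, Slc38a2, Ccnd2 and Syt5 were lost whichever Sir2KD2 array was left out. Ucp1, Syt5 and Slc38a2 held in only 2, 3 and 6 of the 14 fits without 1 array. The calls of Ocln, Pcsk1, Slc2a2 and Igfbp7 were lost in at least 2 of those fits. No gene passed among 16 measured Sirt1 and NAD genes, 28 p53 and FoxO targets, 20 interferon genes, 28 matrix genes, 22 sterol genes, 15 beta-cell ion channels, 13 heat shock genes or 20 lysosomal enzymes, read by the first probe of each gene. Of 25 G-protein regulators 0 passed by the first probe and 1 by the last, Rgs3 at -2.15, whose first probe stood at 0.07. Among markers of other cells, 1 of 6 duct markers (Krt7) passed, against 1.34% of all probes, and 0 passed of 10 acinar, 8 other islet, 8 mesenchymal, 6 immune, 8 hepatocyte and 4 proliferation markers.

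By position, calls on the X chromosome lay mostly on the plus side. Position was taken from the annotation of the genes with a symbol. Of 518 genes on X, 12 were plus calls (2.32%) and 1 was a minus call (0.193%) in Sir2KD2, against 89 (0.631%) and 129 (0.914%) of 14108 genes elsewhere. In Sir2KD1, X held 19 plus calls (3.67%) and 18 minus calls (3.47%), against 213 (1.51%) and 362 (2.57%) elsewhere. The plus share was thus higher on X than elsewhere in both knockdown lines. These shares were looked at with the values known and carry no test. The 12, counted by the first probe of each gene, were Gabra3, Zcchc12, Mageb16, Dcaf8l, Rhox5, Magea8 (1.53), Magea6 (1.52), Samt1 (1.43), Magea3 (1.37), Zfp185 (0.70), Zxdb (0.64) and Maged2 (0.62), of which Gabra3, Zcchc12, Mageb16 and Rhox5 belong to the class not seen in Sir2KD1. Magea6, Magea3 and Magea8 are neighbours and near-copies that may share signal, and all 3 also passed on the plus side in Sir2OE2.

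**Figure D5:**
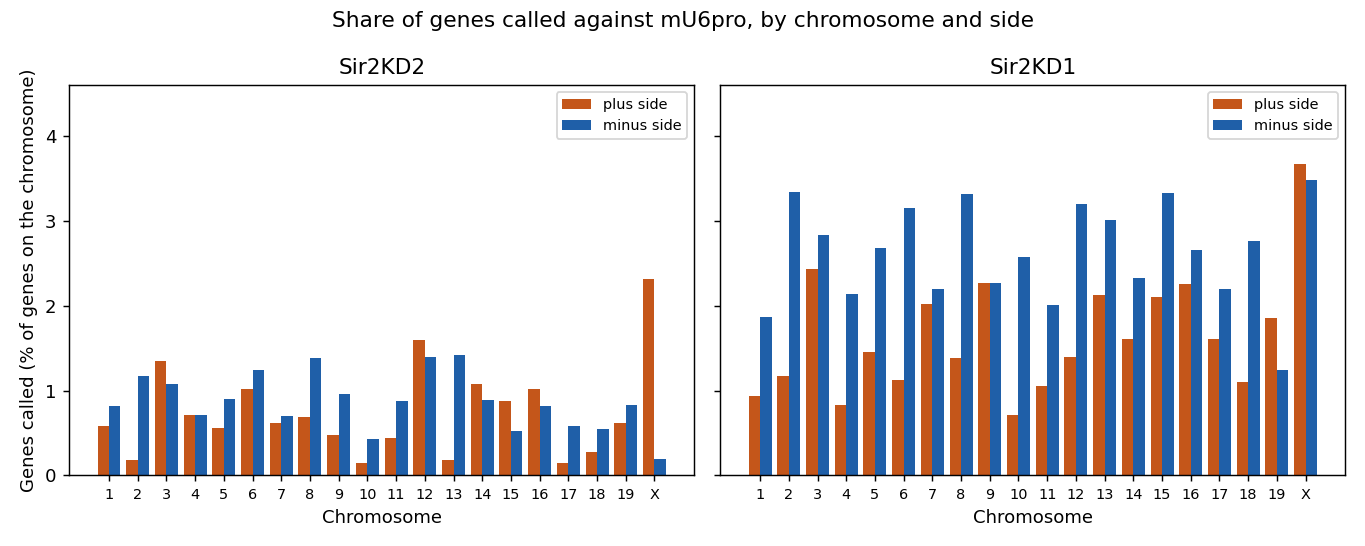
Percent of measured genes on each chromosome that passed on the plus (orange) and minus (blue) side in Sir2KD2 (left) and Sir2KD1 (right); bars start at 0. In Sir2KD2 the X chromosome has 2.32% plus and 0.193% minus, and in Sir2KD1 3.67% and 3.47%. Elsewhere the shares are 0.631% and 0.914% in Sir2KD2, and 1.51% and 2.57% in Sir2KD1.

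Rhox5 and many, but not all, MAGE genes are X-linked genes whose silence in somatic cells goes with methylation of CG pairs in the promoter. The promoters of 3 plus-side X genes and of Cd81 are shown for their CG content, from RefSeq on GRCm38.p6, 250 bases before to 50 after the start, each on its own strand, with each CG in capitals. CG reads the same on both strands. The Rhox5 window is chrX:37754358-37754657 (plus strand), Mageb16 chrX:79671386-79671685 (minus strand), Magea8 chrX:154995801-154996100 (minus strand) and Cd81 chr7:143052500-143052799 (plus strand).
Rhox5: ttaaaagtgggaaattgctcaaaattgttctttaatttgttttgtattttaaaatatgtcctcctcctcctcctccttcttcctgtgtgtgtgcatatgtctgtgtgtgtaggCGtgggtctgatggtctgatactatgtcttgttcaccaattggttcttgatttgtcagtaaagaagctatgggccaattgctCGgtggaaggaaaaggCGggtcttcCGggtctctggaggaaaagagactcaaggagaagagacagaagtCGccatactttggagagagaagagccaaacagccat
Mageb16: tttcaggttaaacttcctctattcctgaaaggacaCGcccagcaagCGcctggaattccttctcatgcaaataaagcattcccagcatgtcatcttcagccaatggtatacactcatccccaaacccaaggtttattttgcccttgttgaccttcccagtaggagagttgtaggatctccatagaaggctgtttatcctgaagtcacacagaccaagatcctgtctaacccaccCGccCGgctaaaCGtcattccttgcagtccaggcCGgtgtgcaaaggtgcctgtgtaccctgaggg
Magea8: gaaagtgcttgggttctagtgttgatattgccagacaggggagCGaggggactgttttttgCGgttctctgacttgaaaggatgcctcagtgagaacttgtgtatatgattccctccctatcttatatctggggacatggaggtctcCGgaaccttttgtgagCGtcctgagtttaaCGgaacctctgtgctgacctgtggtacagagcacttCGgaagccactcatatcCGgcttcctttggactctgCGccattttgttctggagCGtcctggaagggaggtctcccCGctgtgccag
Cd81: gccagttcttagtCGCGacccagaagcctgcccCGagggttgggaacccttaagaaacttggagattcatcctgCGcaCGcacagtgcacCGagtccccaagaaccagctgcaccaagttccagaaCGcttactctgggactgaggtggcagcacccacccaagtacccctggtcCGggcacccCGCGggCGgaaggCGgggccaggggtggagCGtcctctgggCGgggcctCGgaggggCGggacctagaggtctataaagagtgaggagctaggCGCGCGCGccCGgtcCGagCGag
Rhox5 holds 5 CG pairs, Mageb16 6, Magea8 10 and Cd81 23, against a median of 7 over 32851 promoters. As many or more are found in 62.0%, 56.4%, 43.5% and 21.5% of promoters. The Gabra3 windows, of 2 annotated starts, hold 0 CG pairs, and those of Cldn7 hold 7 and 17. No methylation was measured, and the plus-side X genes thus range from 0 to 10 CG pairs in the windows looked at.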

How the data were processed

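The data were the deposited values of 14 two-colour arrays, of which 4 set Sir2KD2 against mU6pro. The deposited values are log2 channel ratios with a mean per probe removed within the knockdown and the overexpression arrays: for complete probes they summed to 0 over 6 of 7 arrays (largest deviation 5.6e-08), leaving out Sir2KD1 slide 2 and Sir2OE1 slide 2. Undoing the centring gave whole-number percents for 100% of complete probes, at a relative tolerance of 1e-05. The sources used here do not give scanner, background correction, normalization, ratio direction or intensities. Precision is therefore limited by the number of slides, and how far signals stood above background is unknown.

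The sign was turned on arrays with the line in channel 1. A linear model (lmFit, then eBayes, of limma 3.58.1; R 4.3.3) covered the 14 arrays and held each line's ratio and a channel term per kind of perturbation (8 residual and 2.54 prior degrees of freedom), on probes with at least 2 arrays in every line. The ratio against 0 is the test and leaves out the control line's own spread. P-values were adjusted over 23230 probes by Benjamini-Hochberg at 0.05. In Sir2KD2 each channel holds the line on 2 arrays, so a channel effect cancels. The fit was tested on simulated data. Slide numbers were checked as pairs between Sir2KD2 and Sir2KD1 and did not pair them (r = -0.389, 0.237 and -0.235).

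Of 23232 probes, 16885 had 1 gene symbol, 143 several and 6204 were not listed in the annotation of 2007; 16205 symbols were updated through Entrez identifiers. Named genes were the 12 largest called ratios on each side with all Sir2KD2 arrays on that side, the 12 largest on each side called in Sir2KD2 and not in Sir2KD1 with the difference called on that side, those called on opposite sides, every called first probe of 24 gene lists and 7 marker lists, and Sirt1. The members and lists were chosen with earlier results of these data known. Genes on X, gene families and the promoters shown were chosen after their values were seen. Alternatives changed the arrays fitted, channel term, turn, scaling, filters, variance estimate, block and threshold.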

Additional observations from a re-analysis of the deposited data

Results flagged for a closer look

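On 2 named probes 1 of the 4 Sir2KD2 arrays lay far from the other 3 by Dixon's test at its 95% critical value, which chance gives in about 1 in 20 groups. Gpx2 stood at 3.12 on slide 2, and Syt5, a synaptotagmin, at -0.60 on slide 1.

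The difference between Sir2KD2 and Sir2KD1, Sir2KD2 minus Sir2KD1 on the log2 scale, passed limma's test for these named genes. On the plus side it was 3.70 for Cldn7, 3.19 for Mageb16 and Dlk1, 2.96 for Gpx2, 2.65 for Gabra3, 2.43 for Zcchc12 and 2.42 for Rhox5. It was 1.88 for 4933429K18Rik, 1.78 for Atp13a2, 1.52 for Odf2l, 1.32 for Ly75, 1.26 for Vps13b, 1.25 for 1700019D03Rik, 1.18 for Slc2a2 and 1.10 for Cyct. On the minus side it was -3.73 for Napsa, -3.46 for Ctsg, -2.15 for Defb41, -2.03 for Cd81, -1.76 for Serpinb1a, -1.68 for Phlda3 and -1.53 for Speer8-ps1. It was -1.21 for Agrn, -1.14 for Cbln1, -0.95 for Csn3 and -0.88 for Chn1. Both lines were read against the same mU6pro RNA.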

How the results depend on the processing

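Counts are given for Sir2KD2 against mU6pro (312 as reported), for Sir2KD2 minus Sir2KD1 (160), and for probes called in Sir2KD2 and not in Sir2KD1 (28), in that order. A single channel term gave 541, 322 and 53, and no channel term gave 810, 576 and 89. With the values taken as line over control already and the centring undone, an alternative chosen after seeing the data, the counts were 1403, 89 and 76, and without undoing the centring the difference gave 89. Of those, 0 were among the 160 reported and 0 among the 28, but the turn by itself keeps this overlap small. The 7 knockdown arrays alone gave 65, 1 and 0, and the 4 Sir2KD2 arrays alone gave 0 for the first. Scaling arrays to one median absolute deviation gave 70 differences. An adjusted p of 0.01 gave 132, 40 and 7, and requiring an absolute log2 ratio of at least 1 gave 151 for the first. Leaving out each array in turn gave 149 to 325, 86 to 248 and 13 to 25. The difference gave 248 without Sir2KD1 slide 1, 105 without its slide 3, 88, 91 and 98 without Sir2KD2 slides 1, 3 and 4, 100 without Sir2OE1 slide 2, and 86, 92 and 95 without Sir2OE2 slides 1, 2 and 3. With slide number as a replicate block the counts were 181, 37 and 8; the slide numbers do not pair the samples. The other alternatives moved these counts by less than 1.5 times, and the cause of the changes was not tested.

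No named probe changed side. Of 59 called, 39 were called in every fit without 1 array and 27 with the 7 knockdown arrays alone. Named probes were not refitted with no sign turned, since centring removes the line's own ratio. With the last probe of each gene in place of the first, Ucn3 was called plus among the beta-cell genes in place of Hnf4a as minus, Rgs3 minus among G-protein regulators, Car5b plus among transporters and Gsk3b plus (1.31) among insulin and IGF genes. Depth cannot be judged without intensities.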

Other observations

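Gene families of the leading members were looked at after their values were seen, and carry no test. Over all probes 0.603% were called plus and 0.74% minus. Of 16 MAGE probes, 5 passed on the plus side in Sir2KD2 and the other 11 lay between -0.42 and 0.51. Of 4 Rhox probes only Rhox5 passed, and the others lay between -0.22 and 0.46. Of 26 claudin probes, 2 passed on the plus side, Cldn7 and Cldn11, and the others lay between -0.41 and 0.69. Of 24 tetraspanin probes, 2 passed on the minus side, Cd81 and Tspan33. Of 11 beta-defensin probes only Defb41 passed, and of 8 glutathione peroxidase probes only Gpx2 passed.

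Against the overexpressing lines, whose control is the Neo pool and not mU6pro, 66 of the 312 Sir2KD2 probes were also called in Sir2OE1, 29 on the same side and 37 on the opposite side. In Sir2OE2 89 were called, 56 on the same side and 33 on the opposite side. Those lines gave 247 calls (1.06%) and 653 calls (2.81%) in all. The sides compare only if both kinds of array hold the same channel on top, which is an assumption. Called in no other line were 122 of the 312 probes, and 29 were called in all 3 other lines. Of the 28 probes not seen in Sir2KD1, 18 were called in neither overexpressing line.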
